A study of Mus musculus with 2 samples.

Results

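The 8 genes described here encode the intermediate filament proteins of neural cells: Nes, Vim, Nefl, Nefm, Nefh, Ina, Prph and Gfap. They were taken by gene name from the M21 tables, which hold 55536 annotated genes, and all 8 were found, with 21 annotated transcripts among them. Polyadenylated RNA was measured in midbrain tissue of B6NCrl mouse embryos at 12.5 days, in 2 libraries that form the only group. Replicate 1 was a pool of 120 healthy embryos and replicate 2 a pool of 88, male and female mixed in both, and the labels name no allele or treatment. Each library was made from 10 ng of RNA with oligo-dT priming, tagmentation and ERCC control RNAs. With 1 library per pool and no second condition, no test across samples was possible, and the values below describe levels within the tissue and the difference between the pools. Because whole tissue was used, fewer cells of a type and less RNA per cell cannot be told apart.

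Intermediate filament proteins share a central coiled-coil rod and assemble into ropelike polymers that give a cell its tensile strength. Dividing neuroepithelial cells and radial glia build theirs from vimentin and nestin, and young neurons exchange these for alpha-internexin and the neurofilament light, medium and heavy chains, of which the heavy chain is known to come last as axons mature. Peripherin is the filament of peripheral neurons and of central neurons whose axons leave the brain, and glial fibrillary acidic protein is that of mature astrocytes.

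Gene structure followed the established classes. In the longest coding transcript of each gene, the type IV genes had few exons: Nes had 4, Nefl 4, Nefm 3, Nefh 4 and Ina 3. The type III genes Vim and Gfap had 9 each. Prph-202, the longest of Prph, had 8 because it keeps an intron described below, and Prph-201, which does not, had 9. Coding length ran from 430 codons in Gfap to 1864 in Nes, whose protein carries a very long tail, and Nefh had 1090.

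Upstream sequence from RefSeq (GRCm38.p6) was given for Nes, Vim, Ina, Prph and Gfap. The windows of 4 genes are shown because they run from a gene among the top levels of the tissue to one with almost no reads, and differ widely in CG content. The Vim window lay within annotated exons and is not printed. Each run is 5′ to 3′ on the gene's strand, ends just upstream of the RefSeq start or of the first annotated exon base, and has every CG dinucleotide in capitals.
Nes, chr3:87970843-87971077, plus strand: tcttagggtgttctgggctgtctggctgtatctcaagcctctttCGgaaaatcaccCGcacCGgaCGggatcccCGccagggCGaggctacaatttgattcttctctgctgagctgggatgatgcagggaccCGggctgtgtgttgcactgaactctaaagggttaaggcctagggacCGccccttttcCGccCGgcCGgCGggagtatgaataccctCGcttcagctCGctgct
Ina, chr19:47014431-47014680, plus strand: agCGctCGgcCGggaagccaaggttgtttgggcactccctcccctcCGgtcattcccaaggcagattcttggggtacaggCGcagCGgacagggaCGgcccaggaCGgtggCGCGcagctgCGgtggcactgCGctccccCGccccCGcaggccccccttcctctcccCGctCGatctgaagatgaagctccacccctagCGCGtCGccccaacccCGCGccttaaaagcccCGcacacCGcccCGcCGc
Prph, chr15:99054924-99055173, plus strand: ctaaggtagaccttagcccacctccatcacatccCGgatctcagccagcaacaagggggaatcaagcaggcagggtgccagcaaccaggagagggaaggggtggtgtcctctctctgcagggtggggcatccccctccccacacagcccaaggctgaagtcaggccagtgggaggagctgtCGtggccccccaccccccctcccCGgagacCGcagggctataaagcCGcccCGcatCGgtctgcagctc
Gfap, chr11:102897201-102897450, minus strand: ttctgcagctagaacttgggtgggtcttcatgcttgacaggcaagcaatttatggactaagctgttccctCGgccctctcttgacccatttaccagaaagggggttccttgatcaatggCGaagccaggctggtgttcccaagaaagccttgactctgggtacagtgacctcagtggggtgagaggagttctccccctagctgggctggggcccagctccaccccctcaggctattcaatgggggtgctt
The 250-base window of Ina held 25 CG dinucleotides and that of Nes 15, of which the 235 bases outside exons are printed. Prph had 7 and Gfap 2, against a median of 6 over 32851 mouse promoters. Observed over expected CG was 0.831 in Ina, 0.694 in Nes, 0.376 in Vim, 0.266 in Prph and 0.104 in Gfap, beside a median of 0.374. Vim, the highest of these genes in level, was thus near the median, and no link between level and CG content was tested. The letters TATAAA stood on the gene's strand 31 bases before the start of Prph and 32 before that of Vim, and on neither strand of the other 3 windows. On either strand, 12.4% of all promoters of this length held them. The letters GGGCGG were found on the opposite strand in Nes, Ina and Prph, and 32.7% of all promoters held them on either strand. A match is a description of letters and not of a bound site.

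The progenitor filament genes included the highest of the 8, Vim, while Nes stood below Ina. Levels are in TPM, a scale per transcript length and per library total that allows genes to be compared within a library. Vim (ENSMUSG00000026728.9, chromosome 2, 13573927 to 13582826, plus strand) had 904.25 TPM in replicate 1 and 934.07 in replicate 2, from 23156 and 30075 reads. The mean of 919 ± 21.1 TPM (SD, n = 2) put it at rank 70 of 22028 protein-coding genes. Nes (ENSMUSG00000004891.16, chromosome 3, 87971078 to 87980451, plus strand) had 149.61 and 143.40 TPM, from 15012 and 17773 reads, a mean of 147 ± 4.39 and rank 1036. Vimentin is a filament protein with which nestin can polymerise. The Vim level was 6.04 times that of Nes in replicate 1 and 6.51 times in replicate 2.

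Among the neuronal filament genes, Ina led. Alpha-internexin, known as the earliest neuronal filament subunit in the central nervous system, is encoded by Ina (ENSMUSG00000034336.3, chromosome 19, 47014698 to 47025327, plus strand). Its level was 298.26 TPM in replicate 1 and 288.61 in replicate 2, averaging 293 ± 6.82 at rank 429. Nefl, the light chain on which the other neurofilament chains depend for assembly (ENSMUSG00000022055.7, chromosome 14, 68083863 to 68089095, plus strand), had 120.67 and 141.41 TPM, averaging 131 ± 14.7. Nefm, the medium chain (ENSMUSG00000022054.11, chromosome 14, 68082590 to 68124846, minus strand), had 83.77 and 92.57 TPM, a mean of 88.2 ± 6.22. Both chains were lower in replicate 1 and Ina was higher there.

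Nefh was the exception among the neurofilament chains. The heavy chain gene (ENSMUSG00000020396.8, chromosome 11, 4938754 to 4948064, minus strand) had 43 reads in replicate 1 and 67 in replicate 2, or 0.59 and 0.73 TPM, below the limit of 1 TPM in both libraries that was used for detection. Nefl stood 205 times above it in replicate 1 and 194 times in replicate 2. Nefm stood only 1.44 and 1.53 times below Nefl. Of the triplet, then, the light and medium chains were within 2-fold of each other in both libraries while the heavy chain lay below the detection limit.

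Prph was low but detected, and Gfap was not. Prph (ENSMUSG00000023484.14, chromosome 15, 99055174 to 99058978, plus strand) had 4.09 and 6.34 TPM from 122 and 215 reads, a mean of 5.22 ± 1.59 and rank 10718. Gfap (ENSMUSG00000020932.14, chromosome 11, 102887336 to 102900912, minus strand) had 2 reads in replicate 1 and 1 in replicate 2, listed at 0.04 and 0.02 TPM. A count of 0 would still allow 3 reads, or about 0.06 TPM by the rounded values listed, so its reads cannot be set apart from none at this depth. In all, 6 of the 8 genes were detected, against 59.4% of protein-coding genes (13083 of 22028).

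**Figure D1:**
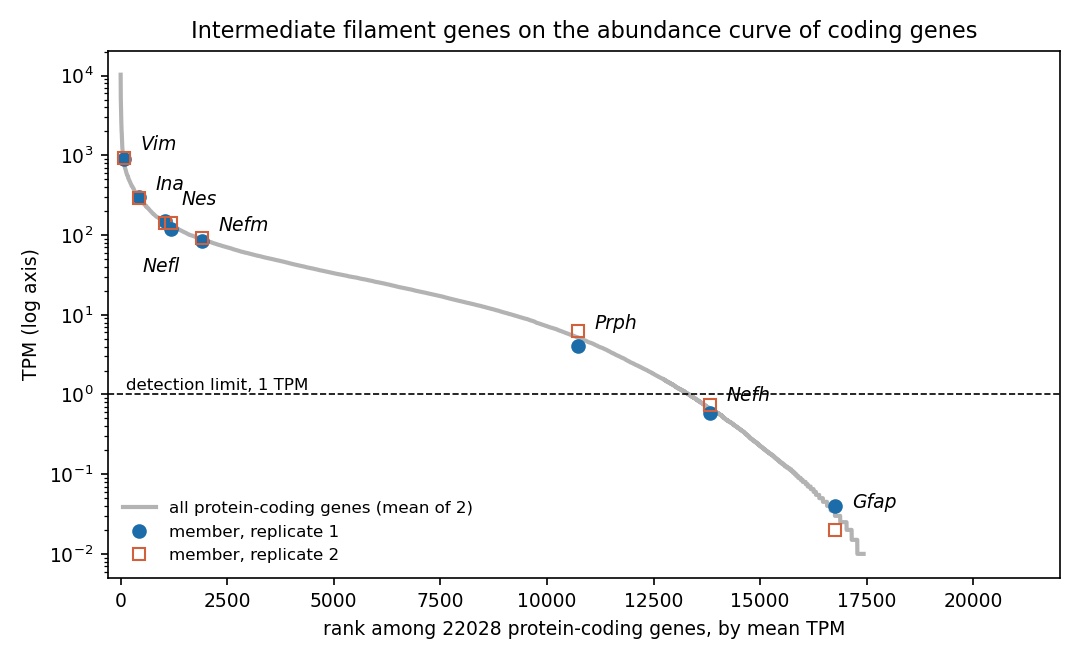
TPM on a log axis against the rank of mean TPM among protein-coding genes, with the 8 filament genes marked for replicate 1 (filled circles) and replicate 2 (open squares) on the grey curve of all coding genes. Vim, Ina, Nes, Nefl and Nefm sit at the steep left end, Prph near the middle, and Nefh and Gfap below the dashed line at 1 TPM.

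In order of level the genes ran Vim, Ina, Nes, Nefl, Nefm, Prph, Nefh and Gfap, and the order was the same in both libraries. Vim exceeded Ina by 1.65 ± 0.07 on the log2 scale (n = 2), a difference of 1.00 ± 0.05 with protein-coding transcripts only. Ina exceeded Nes by 1.00 ± 0.01. Nes and Nefl were the closest pair: their TPM ranges just missed overlapping, and the difference of log2 TPM was 0.31 in replicate 1 and 0.02 in replicate 2. Its mean of 0.17 was smaller than its SD of 0.21, so these neighbours could not be ordered beyond their spread. Nefl exceeded Nefm by 0.57 ± 0.06 and Nefm exceeded Prph by 4.11 ± 0.35. Prph exceeded Nefh by 2.96 ± 0.23. For Gfap, with so few reads, no fold is given.

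Vim and Nes held more of the summed level than the neuronal genes did. Of the summed TPM of the 8 genes, Vim took 58.0% ± 0.143, Ina 18.5% ± 0.81, Nes 9.25% ± 0.467, Nefl 8.26% ± 0.757 and Nefm 5.56% ± 0.279. Vim and Nes together had 1053.86 TPM in replicate 1 and 1077.47 in replicate 2. The 5 neuronal genes, Nefl, Nefm, Nefh, Ina and Prph, together had 507.38 and 529.66, which is 1.05 and 1.02 log2 units less. Vim and Nes thus stood 2.08 and 2.03 times above them, and 1.41 and 1.35 times with protein-coding transcripts only. Vimentin is also made by mesenchyme and endothelium, whose markers are given below, so the Vim level is not that of progenitors alone. The 8 genes took 0.235% of gene reads in replicate 1 (95% Clopper-Pearson interval 0.233 to 0.237) and 0.236% in replicate 2 (0.234 to 0.237). These intervals, and those below, cover the counting error of reads only, and not variation between pools. Reads amplified without molecular identifiers are not independent molecules, so the intervals may be too narrow even for that error.

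The pools differed little in these genes. The ratio of replicate 1 to replicate 2 was taken on TMM-scaled reads, and a gene was called different at 2-fold or more with a 95% interval excluding equality. None of the 7 filament genes with 10 or more reads in a library was called, beside 4.23% of all genes tested (841 of 19885), so the absence of calls is near what that background gives. The log2 ratio was 0.12 for Nes (interval 0.09 to 0.15) and 0.07 for Ina (0.05 to 0.10), both slightly higher in replicate 1. Vim stood at -0.01 (-0.04 to 0.01), with an interval that spans equality. Nefl stood at -0.20 (-0.24 to -0.16) and Nefm at -0.12 (-0.17 to -0.07), both slightly higher in replicate 2. Nefh stood at -0.28 with an interval that spans equality (-0.86 to 0.30).

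Prph had the largest ratio of the 7, at -0.45 (-0.79 to -0.13), or 1.37-fold higher in replicate 2 by reads. By TPM the difference was larger, 4.09 against 6.34, because the mean effective length of its transcripts was 1599 bases in replicate 1 and 1438 in replicate 2. That length rests in part on few reads, since the 397-base Prph-203 had 1.48 and 7.57 estimated reads. Against the older M4 annotation, which does not have Prph-203, Prph had 4.02 and 5.62 TPM. The median absolute log2 ratio was 0.12 over the 7 filament genes and 0.14 over all genes tested. Intervals lay above equality for 2 of the 7 and below it for 3, and over all genes for 15.5% and 16.7%. Scaled to the ERCC controls instead, the median of all genes shifted from -0.01 to -0.28, and with it Nes stood at -0.15, Ina at -0.20 and Vim at -0.28, and 6 of the 7 intervals lay below equality. The ratios and directions given above for all 7 therefore hold relative to the other genes of the library only.

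**Figure D2:**
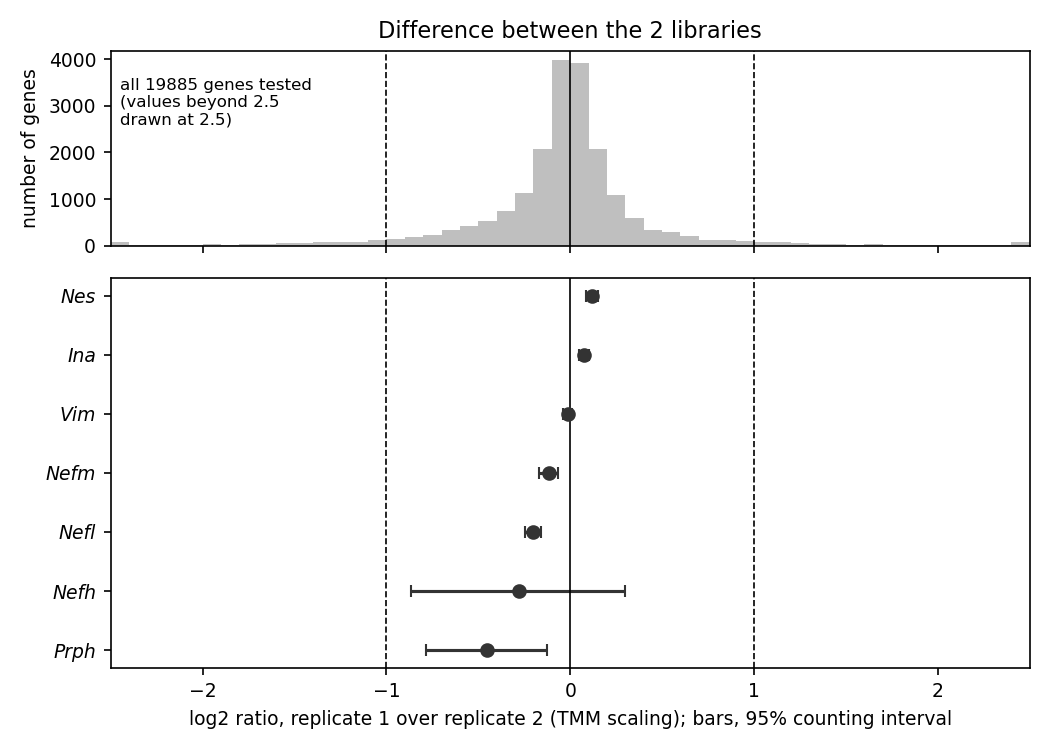
Log2 ratio of replicate 1 to replicate 2 for all 19885 genes tested (upper histogram) and for the 7 filament genes with enough reads (lower points with 95% counting intervals); dashed lines mark 2-fold. All 7 points lie between the dashed lines, and only Prph and Nefh have wide intervals.

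Marker genes of the cell types in the tissue were read beside these ratios. The 9 markers of radial glia and progenitors, which make Nes and Vim, were all detected. They summed to 1957.33 TPM in replicate 1 and 1962.73 in replicate 2, led by the fatty acid binding protein gene Fabp7 at 830 ± 53.6. The near-equal sums hide a split, since intervals lay above equality for 5 of the 9 and below it for 4. Over all genes tested these shares were 15.5% and 16.7%. The 10 neuronal markers were all detected and summed to 2236.30 and 2137.43 TPM, led by the neuronal tubulin gene Tubb3 at 872 ± 14.8. Intervals lay above equality for 8 of these 10 and below it for none, beside 15.5% and 16.7% of all genes tested. That is the side on which Ina lay and opposite to Nefl and Nefm. The directions of markers, like those of the filament genes, hold relative to the other genes of the library only. The 8 markers of mesenchyme and meninges, cells that also make vimentin, summed to 1027.84 and 1457.00 TPM, led by the collagen gene Col3a1 at 450.0 ± 111.8, and all 8 were lower in replicate 1. The 6 endothelial markers, also of vimentin-bearing cells, summed to 89.55 and 99.53 TPM, led by Cldn5 at 28.6 ± 3.06. The part of these cells in the levels of Vim and of the other genes was not tested.

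Markers of the cells known for peripherin were present at low levels. Of 7 markers of peripheral ganglia and crest glia, 3 were detected, and the list summed to 95.31 TPM in replicate 1 and 94.28 in replicate 2, nearly all of it from Pou4f1, a transcription factor gene also active in midbrain neurons, at 82.1 ± 5.63. The nociceptor sodium channel gene Scn10a had no reads in either library, which allows up to 3. The other markers with enough reads, 5 in number, were lower in replicate 1, as Prph was. Sox10, a regulator of crest glia, was the only gene of this list called, beside 4.23% of all genes tested. Its reads were 18 and 56 and its log2 ratio -1.27 (-2.13 to -0.49). Of 5 markers of cholinergic motor neurons, 2 were detected. The list summed to 31.99 and 20.05 TPM, most of it from Isl1, at 29.68 and 16.40 TPM and a mean of 23.0 ± 9.39. Isl1 was higher in replicate 1, opposite to Prph, with 1102 and 816 reads and a log2 ratio of 0.80 (0.66 to 0.93). The other 3 motor neuron markers with enough reads had a log2 ratio below equality, 2 of them with the whole interval below it. Slc18a3, the vesicular acetylcholine transporter gene, was the only gene of the motor neuron list called, beside the same share of all genes. Its reads were 24 and 63 and its log2 ratio -1.03 (-1.77 to -0.33). The part of such cells in the Prph reads was not tested.

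Gfap was near 0 while some genes of the astrocyte list were not. Of 6 astrocyte markers, 4 were detected, and the list summed to 137.32 TPM in replicate 1 and 171.20 in replicate 2. Its highest gene, the gap junction gene Gja1, stood at 125 ± 28.8 TPM and is also a gene of radial glia. Aqp4, the water channel of astrocyte endfeet, had 0.37 and 0.58 TPM. S100b was called higher in replicate 2, with 7 and 25 reads and a log2 ratio of -1.47 (-2.93 to -0.22). Aldoc was called higher in replicate 1, with 96 and 60 reads and a log2 ratio of 1.04 (0.56 to 1.53). Among all genes tested, 4.23% were called. The 4 microglial markers, led by Csf1r at 11.3 ± 0.297 TPM, the 4 of skeletal muscle, led by Actc1 at 3.46 ± 0.212, and the 3 of surface epithelium, led by Epcam at 5.01 ± 1.07, each summed to less than 25 TPM in both libraries.

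Transcript shares were read from the deposited percent of a gene's TPM that each transcript takes. Ina, Nefl and Nefh have a single annotated transcript each, and all 3 Gfap reads went to Gfap-202. Nefm-201 took 98.98% of Nefm in replicate 1 and 98.70% in replicate 2, and Nefm-202 the rest. Nes-201, the full transcript, took 72.94% and 69.45% of Nes. Nes-203, coding for 44 fewer codons, took 13.98% and 15.09%, and Nes-202, annotated as a retained intron, 13.07% and 15.46%.

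By TPM, but not by reads, Vim was divided among 3 transcripts of near-equal share. Vim-203, a fragment of 535 bases annotated as a retained intron, took 34.46% of the TPM in replicate 1 and 35.64% in replicate 2, but only 11.0% and 11.4% of the reads, because TPM divides by length. Vim-206 took 33.76% and 31.42% of the TPM, and Vim-201 30.65% and 32.09%. By reads, Vim-206 took 41.3% and 38.6%, and Vim-201 46.8% and 49.2%. All bases of Vim-206 lie in Vim-201, so the division of reads between them is a model's estimate and was not checked. Of the Vim-203 bases, 90.3% lie in exons of Vim-201, and its own 52 bases come from the intron before one of them. Vim-206 starts 329 bases downstream of Vim-201 and lacks exon 8 of its 9, an 86-base coding exon. Summed over protein-coding transcripts only, Vim had 583.05 and 593.21 TPM, still the highest of the 8. Both stretches that tell these transcripts apart are shown from the GENCODE M21 transcripts (GRCm38, plus strand), with a closing AG in capitals. In Vim-203 that AG is the end of the intron, while in Vim-201 it is the end of the exon itself and marks no intron border of that kind.
Vim-203 own bases, chr2:13579369-13579420: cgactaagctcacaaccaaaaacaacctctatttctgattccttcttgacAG
Vim-201 exon 8, chr2:13581613-13581698: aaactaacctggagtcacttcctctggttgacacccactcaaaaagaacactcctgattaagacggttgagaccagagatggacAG

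In Prph the transcript shares differed between the pools. Prph-202 differs from Prph-201 by keeping a 96-base intron, which lengthens the coding sequence by 32 codons, and mouse peripherin is known for an isoform made by intron retention. Prph-202 took 27.50% of the TPM in replicate 1 and 10.94% in replicate 2. In reads this was 37 of 122, or 30.3% (95% Clopper-Pearson interval 22.3 to 39.3), against 29 of 215, or 13.5% (9.22 to 18.8). The intervals do not overlap, but the reads are a model's estimate and come from 2 libraries, so this compares the libraries alone. Prph-201 took 66.01% and 72.06% of the TPM. Prph-203, a short coding fragment of 397 bases, took 6.49% and 17.00% from 1.48 and 7.57 estimated reads, and Prph-204 had none. The retained stretch is shown in the same way, with the opening GT and closing AG of the intron in capitals.
Prph-202 retained stretch, chr15:99056937-99057032: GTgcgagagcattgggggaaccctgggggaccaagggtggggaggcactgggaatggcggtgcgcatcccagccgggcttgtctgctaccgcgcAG

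**Figure D3:**
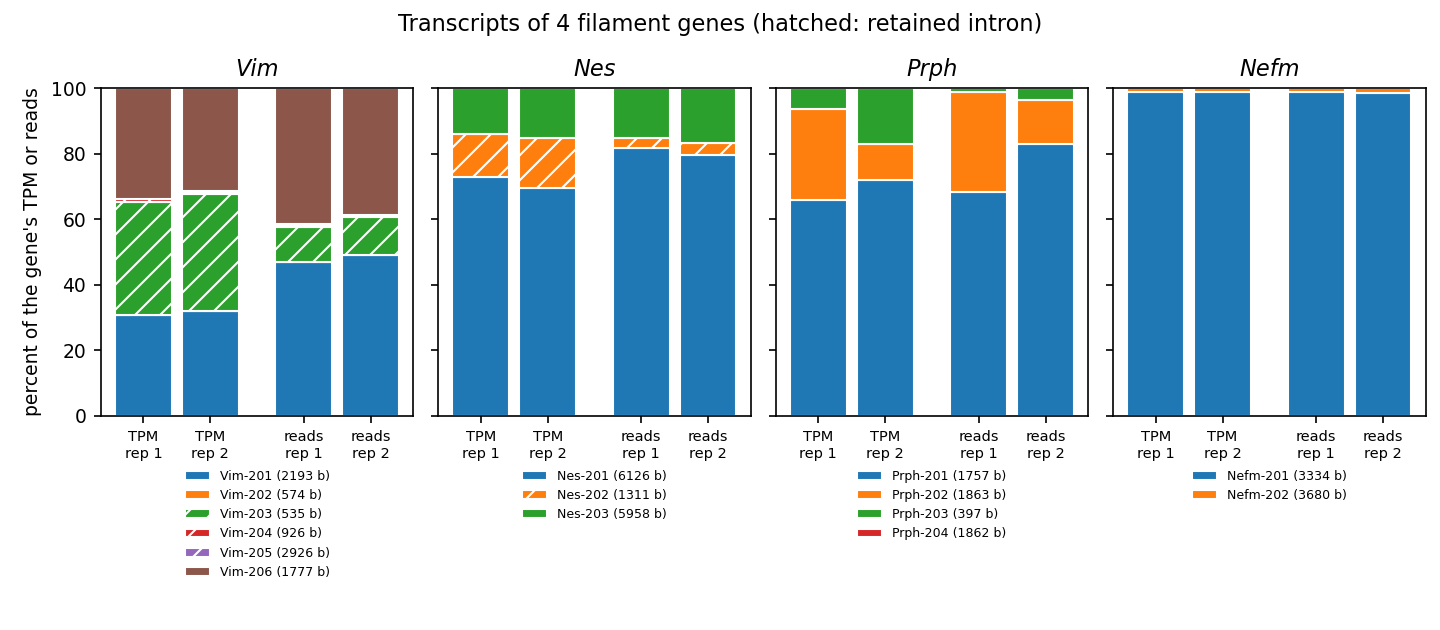
Percent of each gene's TPM (left pair of bars in each panel) and of its estimated reads (right pair) taken by each annotated transcript of Vim, Nes, Prph and Nefm, by replicate, with transcript lengths in bases. The hatched Vim-203 takes about 35% of the TPM but 11.0% and 11.4% of the reads, and Prph-202 takes a larger part in replicate 1 than in replicate 2.

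With coding transcripts only, the order of Nes and Nefl was not kept. Nes then had 130.05 TPM in replicate 1 and 121.23 in replicate 2, against 120.67 and 141.41 for Nefl, so the ranges overlapped and the mean of Nefl was the higher. The other neighbours in the order stayed apart.

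Some of these genes share bases with a neighbour on the opposite strand, and whether counting used strand is not given in the sources used here. Nefl and Nefm lie side by side on chromosome 14. Nefm-201 shares no exonic base with Nefl and lies 30188 bases beyond it, while the long Nefm-202 spans Nefl and shares 1108 exonic bases with it. Only 56.99 and 101.34 reads were assigned to Nefm-202, and the posterior SD of the read count was the same for both genes, 8.75 reads in replicate 1 and 11.09 in replicate 2. Ina shares 456 exonic bases with Nt5c2, a nucleotidase gene, through a protein-coding transcript of that gene, to which 1349.41 and 2020.95 reads were assigned. The posterior SD for Ina was 17.7 and 20.3 reads. These SDs are small against the reads of each gene, but do not cover a wrong strand.

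Each library was also quantified against the older M4 annotation. Of the 6 filament genes at 1 TPM or more, none differed by 1.5-fold in both libraries between annotations, beside 6.18% of all genes compared (919 of 14871). Ina, Nefl, Nefm, Vim and Nes were lower in M21 by 0.05 to 0.09 on the log2 scale, and the median of all genes was -0.07 in both libraries. Prph stood at 0.02 in replicate 1 and 0.17 in replicate 2. M4 has Prph-201 and Prph-202 alone, and Prph-202 took 30.34% and 13.58% there, so the larger share in replicate 1 was present in both quantifications.

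Except for the lamins, the rest of the filament family was far lower than Vim, Ina, Nes, Nefl and Nefm. Of 17 further genes listed (lamins, keratins, desmin, syncoilin, synemin and the lens filament genes), 13 reached the detection limit, and the median was 3.54 TPM against 110 for the 8 neural genes. Lmnb1, a lamin of the nuclear envelope, was highest at 154 ± 1.44 TPM, close to Nes, and Krt20, an epithelial keratin, lowest at 0.15 and 0.07. Prph lay among the better expressed keratins in level. Nefh, at a mean of 0.66 TPM, and Gfap, at 0.03, lay below most of the listed keratins. Of the 16 genes with enough reads, 6 had an interval below equality, lower in replicate 1, and none above it, beside 16.7% and 15.5% of all genes. Bfsp2, a lens filament gene, was the only one of the 16 called, beside the 4.23% of all genes given above, with 25 and 70 reads, 1.84 and 4.30 TPM and a log2 ratio of -1.12 (-1.84 to -0.44).

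**Figure D4:**
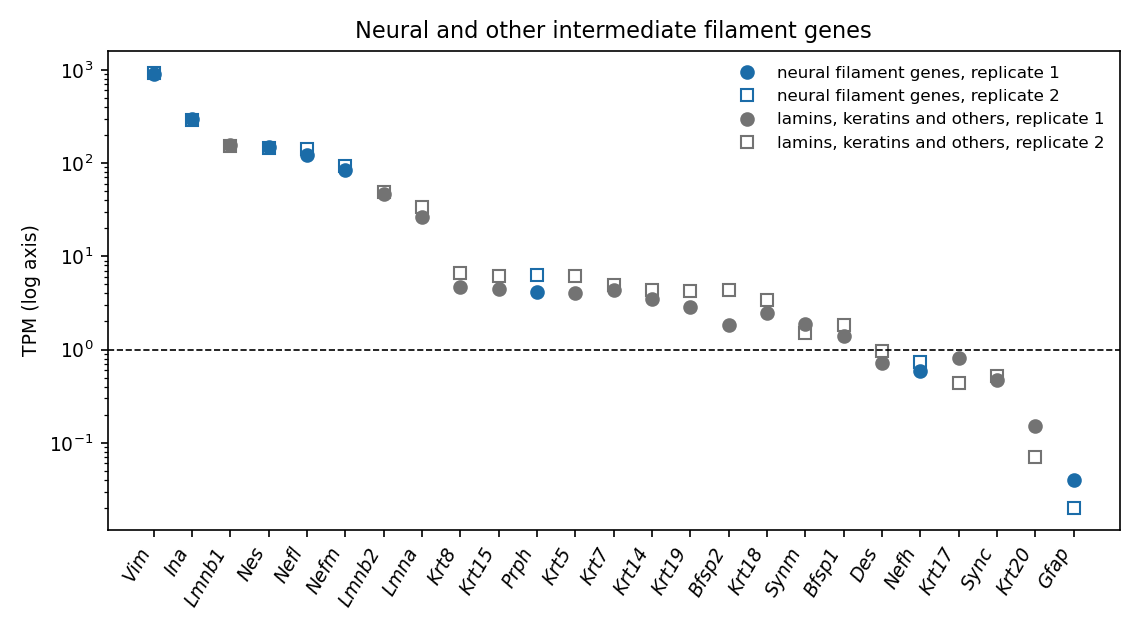
TPM on a log axis of the 8 neural filament genes (blue) and 17 other intermediate filament genes (grey), ordered by mean TPM, with filled circles for replicate 1 and open squares for replicate 2. Lmnb1 is the only other family member level with Nes and Nefl, most keratins lie near Prph, and Krt17 and Krt20 lie below 1 TPM.

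Genes that act on the filaments were mostly well expressed. All 13 kinases and phosphatase subunits on the list passed 1 TPM, and their median was 99.5 TPM. None was called between the pools, beside 4.23% of all genes tested. Cdk1, the mitotic kinase that phosphorylates vimentin and nestin, was highest at 226 ± 8.63, and Cdk5r2, a neuronal activator of the neurofilament kinase Cdk5, lowest at 5.53 ± 1.59. All 5 motor genes of axonal transport were detected, from Kif5a, a neuronal kinesin linked to neurofilament transport, at 44.7 ± 3.36 to the kinesin light chain gene Klc1 at 303 ± 5.63. Of the genes of filament turnover, the ubiquitin ligase gene Stub1 stood highest at 217 ± 6.99 TPM. Of the 6 cytolinkers, which tie filaments to other structures, 3 were detected, with Macf1 highest at 61.0 ± 0.58 and the desmosomal Dsp lowest at 0.455 ± 0.0919. No gene of the motor, turnover and cytolinker lists was called either, so the absence of calls in these lists is near what that background gives.

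Depth was high in both libraries, and 29056772 and 37122519 estimated reads fell on annotated genes. The labels give them as separate biological replicates, and their counts were not identical within sampling noise (chi-square per degree of freedom 6.30).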

How the data were processed

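Polyadenylated RNA of 2 midbrain pools was analysed, each deposited as gene and transcript tables against the M21 and M4 annotations of mm10. Per the file headers, these hold expected counts (estimated reads, unscaled), TPM and FPKM scaled by effective length and, for transcripts, the percent of the gene's TPM. FPKM was not used for any result. The posterior standard deviation of each count was deposited by the authors as well. Aligner, quantification tool, version and strand setting are not given in the sources used here. M21 was the main quantification, and coordinates and biotypes came from GENCODE M21.

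Deposited TPM was used as given, spike-ins included, with detection at 1 TPM in both libraries. Ratios used expected counts rounded to whole numbers, TMM scaling (edgeR 4.0.16, R 4.3.3), a minimum of 10 counts in a library and an exact conditional binomial 95% interval. The procedure was tested on simulated data. These counts were drawn with counting error only (Poisson), so spread between pools beyond counting error was not covered. Rows that name no gene took 4.02% and 3.38% of counts, nearly all of these on the ERCC controls, and were left out of scaling. A count of 0 was read as up to 3.

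The members and lists were chosen with earlier results of these data known. All 8 members are named; of the other lists, the highest and lowest gene and those called; of marker lists, the highest, those at 0 and those called. Aqp4 is named beyond this rule, and Nt5c2 because it overlaps a member. The lowest gene of the turnover list is not reported here. The 5 RefSeq promoters matched by symbol; Nefl, Nefm and Nefh had none. Alternatives were other scalings (DESeq2 1.42.0), count minimums, fold limits, detection limits, annotation and length treatment.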

Additional observations from a re-analysis of the deposited data

How the results depend on the processing

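The number of filament genes detected stayed within 1.5 times of 6, and the number called between libraries or annotations stayed at 0, under all alternatives run. Summing TPM over protein-coding transcripts only was chosen after seeing the data. It turned the mean difference of Nes over Nefl to -0.057 on the log2 scale, and moved Vim over Ina to 1.00, Ina over Nes to 1.22, Vim over Nes to 2.23 and the summed progenitor over neuronal genes to 0.46. Ina over Nes moved to 1.02 with M4 and to 0.98 with counts per annotated length. The cause of these shifts was not tested beyond the transcripts left out. At 5 TPM 3 other filament genes were detected, and at 0.5 TPM 5 cytolinkers. With M4 the mean share of TPM was 35.9% for Vim-203, 29.9% for Vim-201, 12.2% for Nes-202 and 78.0% for Prph-201. Over all genes, a minimum of 50 counts gave 208 calls between libraries, a limit of 1.5-fold gave 1429, and a 2-fold limit gave 442 calls between annotations. Under ERCC scaling 217 of 1090 calls were higher in replicate 1, 19.9%, against 42.1% with TMM. No paired analysis was possible because there is 1 group. With 2 pools, an SD rests on 2 values. Prph, Nefh and Gfap are limited by depth: 122 and 215, 43 and 67, and 2 and 1 reads.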
